A study of Mus musculus with 16 samples.

Results

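Genes of the X chromosome that encode enzymes of everyday metabolism were followed across the RNA-seq libraries of Wt and Spen-/- mouse embryonic stem cells (ESCs), namely Pgk1, Hprt, G6pdx, Pdha1, Idh3g and Gla. The 6 members were taken by name from the 2585 X-linked genes of the count files, which list 55421 genes, and matched to their Ensembl identifiers through GENCODE M21. For each member the share of reads from the Cast/Ei X chromosome and the total read count were obtained in all 8 conditions.

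The cells were female F1 ESCs from 129/Sv and Cast/Ei mice whose endogenous Xist promoter on the Cast X had been replaced by one that responds to doxycycline. Spen-/- cells are the same line after CRISPR deletion of the Spen open reading frame, and the sources used here do not state how many Spen-/- clones entered the RNA-seq. Each of the 8 conditions has 2 biological replicates, giving 16 libraries. Wt and Spen-/- cells were taken at day 0 without doxycycline and at day 0 after 4 days of doxycycline at 2 µg/mL. They were also taken at day 3 of monolayer differentiation without doxycycline, and at day 7 of differentiation with it. The day 7 cells, too, had 4 days of doxycycline at 2 µg/mL before day 0. With doxycycline the Cast X expresses Xist and is the future inactive X, whereas without it the 129 X is the one that can be inactivated during differentiation. Doxycycline-treated cells were sorted for dsRed and untreated cells were not, so the effects of doxycycline and of sorting cannot be told apart. The ESCs were grown on male C57BL/6 feeder fibroblasts, which were removed by plating before differentiation.

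X inactivation balances the dose of X-linked genes between the sexes. Xist RNA coats the X chromosome from which it is made and recruits proteins that switch genes off, among them SPEN, which binds the A-repeat of Xist and brings histone deacetylase activity to promoters. Metabolic enzymes encoded on the X were among the first genes in which this silencing was seen, because each female cell uses the enzyme from a single X. Pgk1 encodes phosphoglycerate kinase, a glycolytic enzyme that makes ATP. G6pdx encodes glucose-6-phosphate dehydrogenase, the entry enzyme of the pentose phosphate pathway and a source of NADPH. Pdha1 encodes the E1 alpha subunit of pyruvate dehydrogenase, which turns pyruvate into acetyl-CoA, and Idh3g encodes the gamma subunit of the NAD-dependent isocitrate dehydrogenase of the citrate cycle. Hprt encodes the purine salvage enzyme hypoxanthine phosphoribosyltransferase, and Gla encodes alpha-galactosidase A, a lysosomal hydrolase.

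On the X chromosome (GRCm38, which is mm10) Idh3g and G6pdx lie close to each other, and the other members lie further apart. Pgk1 (ENSMUSG00000062070, X, 106187100 to 106203699, plus strand) starts 2.70 Mb from the Xist start site. Hprt (ENSMUSG00000025630, 52988137 to 53021659, plus strand) starts 50.5 Mb from it and Pdha1 (ENSMUSG00000031299, 160122209 to 160138413, minus strand) 56.7 Mb. G6pdx (ENSMUSG00000031400, 74409483 to 74429194, minus strand), Idh3g (ENSMUSG00000002010, 73778963 to 73786897, minus strand) and Gla (ENSMUSG00000031266, 134588149 to 134601125, minus strand) start between 29.1 and 31.1 Mb from it. Exons of G6pdx share 418 bp with the antisense gene Ikbkg and exons of Pdha1 share 603 bp with the antisense gene Map3k15, and whether counting used strand is unknown, so reads in these stretches could not be tied to either gene of each pair. The neighbours were measured at lower levels, with medians over the 16 libraries of 59.4 (Ikbkg) and 10.3 (Map3k15) CPM, which are reads scaled to library size. The processed pseudogenes of Pgk1 held 1, 4 and 20 reads over all libraries.

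All 6 members had a RefSeq promoter window of 300 bases (GRCm38.p6, from 250 bases before to 50 after the RefSeq start). The windows of Hprt and G6pdx do not contain the GENCODE start given above. That of Hprt ends at 52988127, before the start at 52988137. That of G6pdx (74428831 to 74429130) lies within the gene, which starts at 74429194 on the minus strand. The windows of 3 members are shown. Pgk1 and Hprt had the highest and the lowest Cast share in untreated Wt cells at day 0, and Idh3g had the smallest allelic change in Wt cells with doxycycline at day 0. Capitals mark the GC box GGGCGG and the CCAAT box CCAAT, each searched on both strands. The last 2 GC boxes of the Pgk1 window overlap.
Pgk1, chrX:106186850-106187149, plus strand: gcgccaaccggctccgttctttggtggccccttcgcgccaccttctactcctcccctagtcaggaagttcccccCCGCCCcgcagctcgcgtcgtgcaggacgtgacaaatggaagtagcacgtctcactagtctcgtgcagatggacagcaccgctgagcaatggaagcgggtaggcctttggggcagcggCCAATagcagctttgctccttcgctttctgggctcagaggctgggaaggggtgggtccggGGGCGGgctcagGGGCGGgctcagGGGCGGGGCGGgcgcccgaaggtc
Hprt, chrX:52987828-52988127, plus strand: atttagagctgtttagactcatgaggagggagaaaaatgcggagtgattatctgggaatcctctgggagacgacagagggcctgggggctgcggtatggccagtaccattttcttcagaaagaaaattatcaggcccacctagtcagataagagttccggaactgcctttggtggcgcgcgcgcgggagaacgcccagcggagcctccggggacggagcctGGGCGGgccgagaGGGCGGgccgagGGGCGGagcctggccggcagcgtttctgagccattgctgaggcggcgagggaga
Idh3g, chrX:73786848-73787147, minus strand: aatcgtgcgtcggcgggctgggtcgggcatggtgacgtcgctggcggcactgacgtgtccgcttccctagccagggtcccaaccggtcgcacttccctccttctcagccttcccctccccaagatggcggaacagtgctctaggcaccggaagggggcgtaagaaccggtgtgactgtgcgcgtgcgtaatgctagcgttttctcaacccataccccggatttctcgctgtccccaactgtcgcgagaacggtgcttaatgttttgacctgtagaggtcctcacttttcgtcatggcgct

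The GC box occurred 5 times in the Pgk1 window, 3 times in that of Hprt, 2 times in that of Gla and 1 time in that of G6pdx. No GC box in this spelling was found in the windows of Pdha1 and Idh3g. Of all 32817 promoter windows 35.6% held at least 1 GC box. The CCAAT box occurred 3 times in the Gla window and 1 time in that of Pgk1, and 37.4% of all windows held 1 or more. None of the 6 windows held TATAAA, which 13.6% of all windows did. Of the 1220 windows on the X chromosome 33.9% held a GC box, 45% a CCAAT box and 14.7% TATAAA. CpG dinucleotides numbered 17 (Gla) to 27 (Idh3g) against a median of 7 over all windows. Fewer CpGs than in the Gla window were found in 68.6% of all windows, and fewer than in that of Idh3g in 84.5%.

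Reads on genes numbered 7571566 to 14822867 per library, of which 13.0% to 15.3% carried an allele. Genes with at least 1 read numbered 14969 to 23458 per library and were fewest in the 2 Spen-/- day 7 libraries (15324 and 14969). The median Cast share of 6216 autosomal genes stayed between 0.472 and 0.504 in the 16 libraries. Its interquartile range over genes ran from 0.128 to 0.351 and was widest in the 2 Spen-/- day 7 libraries (0.351 and 0.337). Spen was measured at 16.2 to 43.5 CPM in Wt libraries and at 0.129 to 5.45 CPM in Spen-/- libraries, in keeping with the labels. Xist reached 181 and 282 CPM in Wt cells with doxycycline at day 0 and 80.9 and 38.6 CPM in Spen-/- cells, and 995 and 741 CPM against 199 and 75.1 CPM at day 7. At day 7 the lower Xist level of Spen-/- cells passed the test (log2 change -2.66 ± 0.50 SE, edgeR quasi-likelihood adjusted p = 0.00704). The summed level of 10 pluripotency markers was 430 to 573 CPM in Wt cells and 3403 to 3418 CPM in Spen-/- cells at day 7. That of 10 markers of differentiated cells was 277 to 295 CPM in Wt and 25.1 to 47.8 CPM in Spen-/- cells. Most of this Wt sum was the mesoderm gene T, with 192 and 211 CPM in Wt and 0 in both Spen-/- libraries. Of the 9 tested markers of differentiated cells 3 went the other way, with log2 changes above 0. The 4 Y-linked marker genes, which the female ESCs lack and the male feeders carry, summed to 3.62 to 18.1 CPM in the untreated and 0.129 to 5.78 CPM in the treated cells of day 0, and at most 0.533 CPM at days 3 and 7. The 11 fibroblast markers summed to 51.6 to 158 CPM at day 0 without doxycycline and to 21.7 to 71.2 CPM with it. They summed to 79.6 to 99.4 CPM at day 3 and to 75.2 to 120 CPM at day 7. At those days the fibroblast list thus did not follow the Y-linked genes. The part of these differences between cells in the results below was not tested.

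Per kilobase of exon, Hprt was the most abundant member, with a median level of 580 CPM per kb over the 16 libraries. Pgk1 followed at 246 CPM per kb, Idh3g at 105, Pdha1 at 102, G6pdx at 41.5 and Gla at 16.4 CPM per kb. The reads that can be assigned to an allele were spread unevenly. Hprt had 380 to 1374 allele-specific reads per library, Idh3g 258 to 682, Pdha1 240 to 541, G6pdx 62 to 224 and Pgk1 5 to 190. Gla had 194 to 1120 reads per library and 0 allele-specific reads in all 16, so no Cast share exists for it and it enters the total counts alone. For Pgk1, 2.09% of all reads were allele-specific, against 9.93% to 13.9% for the 4 other members with a share.

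**Figure D1:**
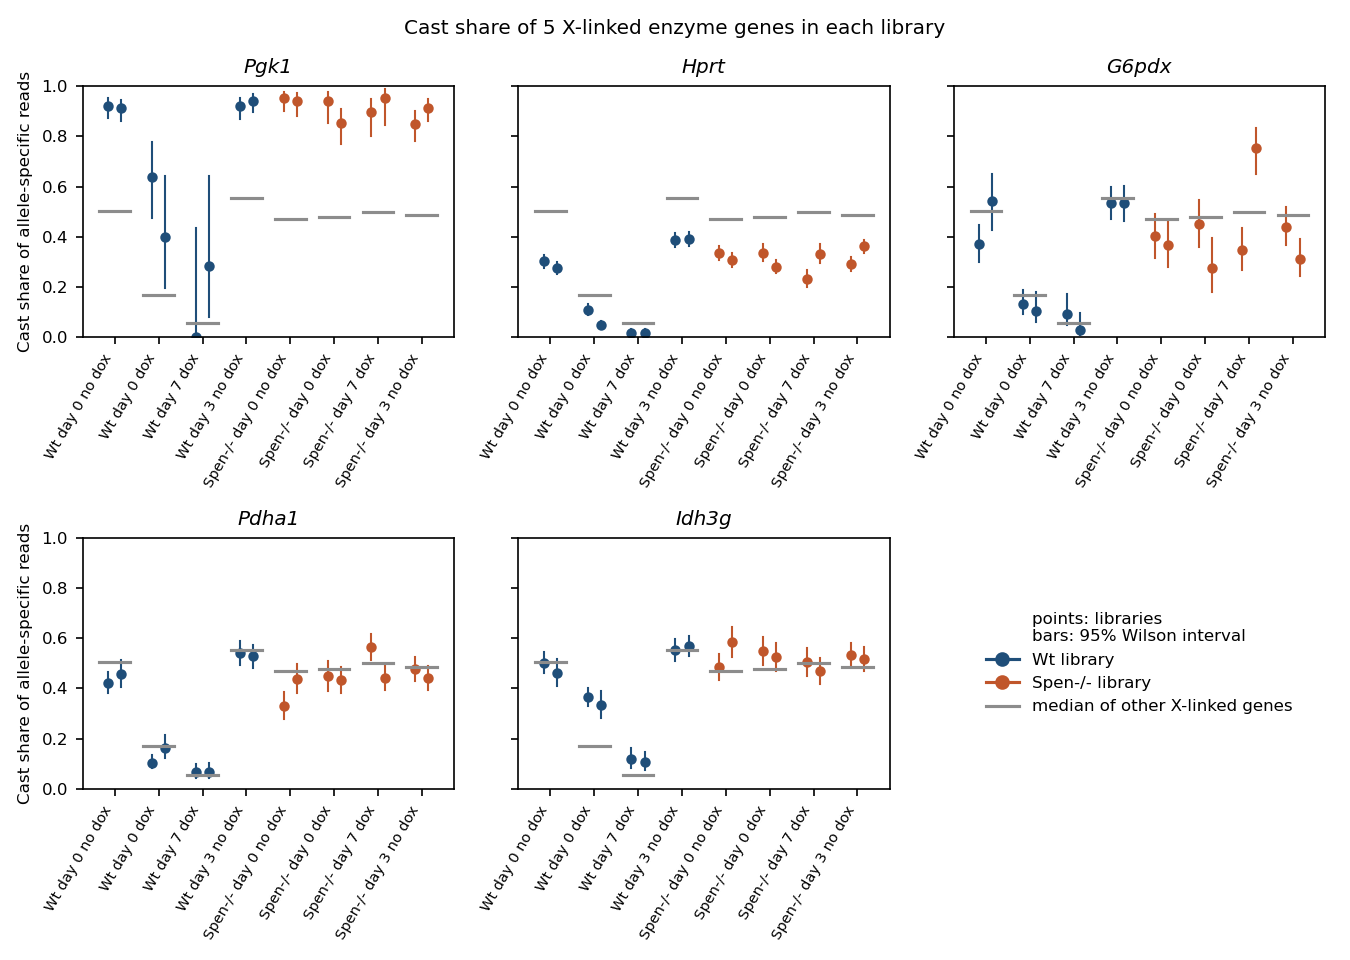
Cast share of allele-specific reads (y axis, 0 to 1) for the 5 members that have one, by condition (x axis), with 1 point per library, 95% Wilson intervals as vertical bars and the mean of the 2 library medians of 210 other X-linked genes as a grey line. In Wt cells with doxycycline at days 0 and 7 all 5 members sit below their level without it, and for each of them every Spen-/- point with doxycycline lies above every Wt point with it.

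Without doxycycline at day 0 the Cast share differed widely between members, so each gene had its own starting point. In Wt cells it was 0.921 and 0.911 for Pgk1, 0.302 and 0.275 for Hprt, 0.371 and 0.541 for G6pdx, 0.421 and 0.458 for Pdha1, and 0.503 and 0.462 for Idh3g. The median of 210 other X-linked genes was 0.506 and 0.5 in the same libraries. The share of Pgk1 therefore stood far above this median and that of Hprt below it, in both genotypes without doxycycline. For Pgk1 the share covers only 2.09% of its reads, and whether it holds for the rest was not tested. The effect of doxycycline is thus read within each gene, as a change of the Cast to 129 ratio from that gene's own starting point.

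In Wt cells doxycycline at day 0 lowered the Cast share of 2 of the 5 members past the test, Hprt and Pdha1, and the 3 others had negative changes that did not pass it. The share of Hprt was 0.110 and 0.048 with doxycycline, against 0.302 and 0.275 without it. This was a log2 change of the Cast to 129 ratio of -2.30 ± 0.34 (SE, n = 2 libraries per condition, adjusted p = 0.00256). Pdha1 had shares of 0.104 and 0.162, against 0.421 and 0.458, a log2 change of -2.39 ± 0.35 (adjusted p = 0.00256). For both genes the 2 conditions lay well apart.

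The 3 other members had lower shares with doxycycline in both Wt libraries too, without passing the test. Pgk1 had shares of 0.639 and 0.400, from 36 and 15 allele-specific reads, with 95% Wilson intervals of 0.476 to 0.775 and 0.198 to 0.643. Its log2 change was -3.20 ± 0.80 (adjusted p = 0.141), the largest in size among the members but also the least precise. G6pdx had shares of 0.134 and 0.107, against 0.371 and 0.541, and a log2 change of -2.56 ± 0.77 (adjusted p = 0.360). Idh3g changed least, with shares of 0.365 and 0.332 against 0.503 and 0.462 and a log2 change of -0.80 ± 0.29 (adjusted p = 0.758). The Idh3g ranges with and without doxycycline did not overlap. Among 276 X-linked genes tested its change was the 29th from the top, where the median was -2.31 and Hprt and Pdha1 were near the middle.

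Among all 8576 genes tested for this effect 0.49% were called, and 14.9% of the 276 X-linked ones were, which is the background for the 2 of 5 members. Both Wt libraries with doxycycline lay below both without it for all 5 members, as they did for 80.8% of X-linked genes and 16.7% of all genes tested. The 5 members thus moved as most of the X chromosome did. Leaving out replicate 2 of the untreated or replicate 1 of the treated Wt cells ended the Pdha1 call (adjusted p = 0.0512 and 0.122), and Hprt was called in each of these fits. DESeq2 also called Pgk1 (adjusted p = 0.0136).

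In Spen-/- cells doxycycline at day 0 changed the allelic balance of none of the 5 members past the test. Hprt had shares of 0.336 and 0.281 with doxycycline and 0.335 and 0.309 without it, a log2 change of -0.09 ± 0.32. Idh3g had 0.55 and 0.526 against 0.485 and 0.585 (0.02 ± 0.29). The shares of Pdha1 were 0.448 and 0.431 against 0.330 and 0.439 (0.34 ± 0.35). For these 3 genes the ranges with and without doxycycline overlapped.

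G6pdx had shares of 0.451 and 0.274 against 0.402 and 0.367 (-0.12 ± 0.75). Pgk1 had 0.939 and 0.851 against 0.952 and 0.940, and its log2 change of -1.03 ± 0.82 was the most negative of the 5. It was the 1 member whose 2 treated libraries both lay below the untreated ones, as in 15.2% of X-linked and 14.8% of all genes tested. Adjusted p-values of the members ran from 0.917 to 1. No gene at all was called, 0% of 7641 genes and 0% of the 276 X-linked ones, while 489 genes had an unadjusted p under 0.05 and DESeq2 called 37.

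The difference between the genotypes in the effect of doxycycline was tested directly and was called for 1 member, Pdha1. Its Cast to 129 ratio changed by 2.73 log2 units more in Spen-/- than in Wt cells (± 0.49 SE, adjusted p = 0.0347). For Hprt the difference was 2.21 ± 0.47 (adjusted p = 0.114), for G6pdx 2.43 ± 1.08 (0.862), for Pgk1 2.17 ± 1.15 (0.998) and for Idh3g 0.82 ± 0.41 (0.991). All 5 differences were above 0, beside a median of 2.25 over the 253 X-linked genes tested. Of these 5.14% were called, and 0.177% of all 7358 genes. The Pdha1 call was lost when any of 6 of the 8 libraries was left out (adjusted p = 0.0864 to 0.306) and in a fit of the 8 compared libraries alone (0.0598). Hprt was called by DESeq2 (adjusted p = 0.00508), at a minimum of more than 10 reads (0.0378), without replicate 1 of Wt day 0 with doxycycline (0.0135) and without the 2 Spen-/- day 7 libraries (0.0242).

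At day 7 with doxycycline the genotypes stood furthest apart, and all 4 members that could be tested had a higher Cast share in Spen-/- cells. Hprt had a Cast share of 0.016 and 0.019 in Wt and 0.232 and 0.333 in Spen-/- cells, resting on 6 and 9 Cast reads in Wt and on 149 and 210 in Spen-/- cells. The log2 difference of the ratio was 4.44 ± 0.41 (adjusted p = 5.04e-06). Pdha1 had 0.065 and 0.068 against 0.564 and 0.442 (3.81 ± 0.37, adjusted p = 8.94e-06). In these 2 genes the Wt replicates nearly coincided.

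Idh3g, which had changed least at day 0, reached 0.118 and 0.107 in Wt cells at day 7, against 0.505 and 0.469 in Spen-/- cells (2.90 ± 0.30, adjusted p = 1.76e-05). G6pdx had 0.093 and 0.029 against 0.347 and 0.753 (4.21 ± 0.86, adjusted p = 0.0102). The 2 Spen-/- libraries of G6pdx were far from each other, and leaving out replicate 2 of the Wt cells ended its call (adjusted p = 0.127). For Pgk1 the Cast reads numbered 0 out of 5 and 2 out of 7 in Wt libraries, whereas Spen-/- libraries held 61 out of 68 and 41 out of 43. It was below the minimum of more than 20 allele-specific reads in Wt cells and was not tested, and 0 of 5 reads allows a share of up to 0.6 by the limit of 3 counts, while the upper end of the 95% Wilson interval drawn in the plot of Cast shares is 0.434.

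Of the 263 X-linked genes tested at day 7 45.2% were called, beside the 4 of 4 members, and of all 7679 genes 3.27%. Both Spen-/- libraries lay above both Wt libraries in the 4 members, in 80.6% of X-linked genes and in 23.7% of all genes tested. The median log2 difference over the X-linked genes was 3.88. With the 4 day 7 libraries fitted alone none of the 4 members was called (adjusted p = 0.0807 to 0.336), and 2 genes were called in all.

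At day 3 without doxycycline the Cast X carries no induced Xist. All 5 members with a share had a higher mean Cast share in Wt than in Spen-/- cells, and none of the differences passed the test. In Wt cells the shares were 0.386 and 0.390 for Hprt, 0.541 and 0.528 for Pdha1, 0.554 and 0.570 for Idh3g, 0.536 and 0.533 for G6pdx, and 0.919 and 0.942 for Pgk1. In Spen-/- cells they were 0.292 and 0.362 for Hprt, 0.476 and 0.441 for Pdha1, 0.533 and 0.516 for Idh3g, 0.441 and 0.312 for G6pdx, and 0.851 and 0.913 for Pgk1. The 2 Spen-/- libraries lay below both Wt libraries for all 5 members, as for 35.7% of X-linked genes and 18% of all genes tested.

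The log2 differences of the ratio (Spen-/- minus Wt) ran from -0.22 ± 0.28 (Idh3g) to -0.93 ± 0.72 (G6pdx), each with an adjusted p = 1, beside a median of -0.37 over 314 X-linked genes. At day 0 without doxycycline they ran from -0.38 ± 0.74 (G6pdx) to 0.68 ± 0.77 (Pgk1), again with an adjusted p = 1. No gene was called in either comparison, 0% of 8757 and 0% of 8017 genes, X-linked ones included. By unadjusted p under 0.05, 84 and 340 genes passed, and DESeq2 called 0 and 2.

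Over the 8 conditions the order of the mean Cast shares was the same at its lower end in the 5 members. Wt day 7 was lowest and Wt day 0 with doxycycline next, and the ranges of these 2 did not overlap each other or those of the next condition. Above them stood 6 conditions whose ranges mostly overlapped from one to the next. For Hprt they spanned means of 0.283 ± 0.071 (SD, n = 2, Spen-/- day 7) to 0.388 ± 0.003 (Wt day 3), and for Idh3g 0.482 ± 0.029 (Wt day 0 without doxycycline) to 0.562 ± 0.011 (Wt day 3). Pdha1 spanned 0.384 ± 0.077 (Spen-/- day 0 without doxycycline) to 0.535 ± 0.010 (Wt day 3). G6pdx spanned 0.363 ± 0.125 (Spen-/- day 0 with doxycycline) to 0.55 ± 0.287 (Spen-/- day 7), and Pgk1 0.882 ± 0.044 (Spen-/- day 3) to 0.946 ± 0.008 (Spen-/- day 0 without doxycycline).

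**Figure D2:**
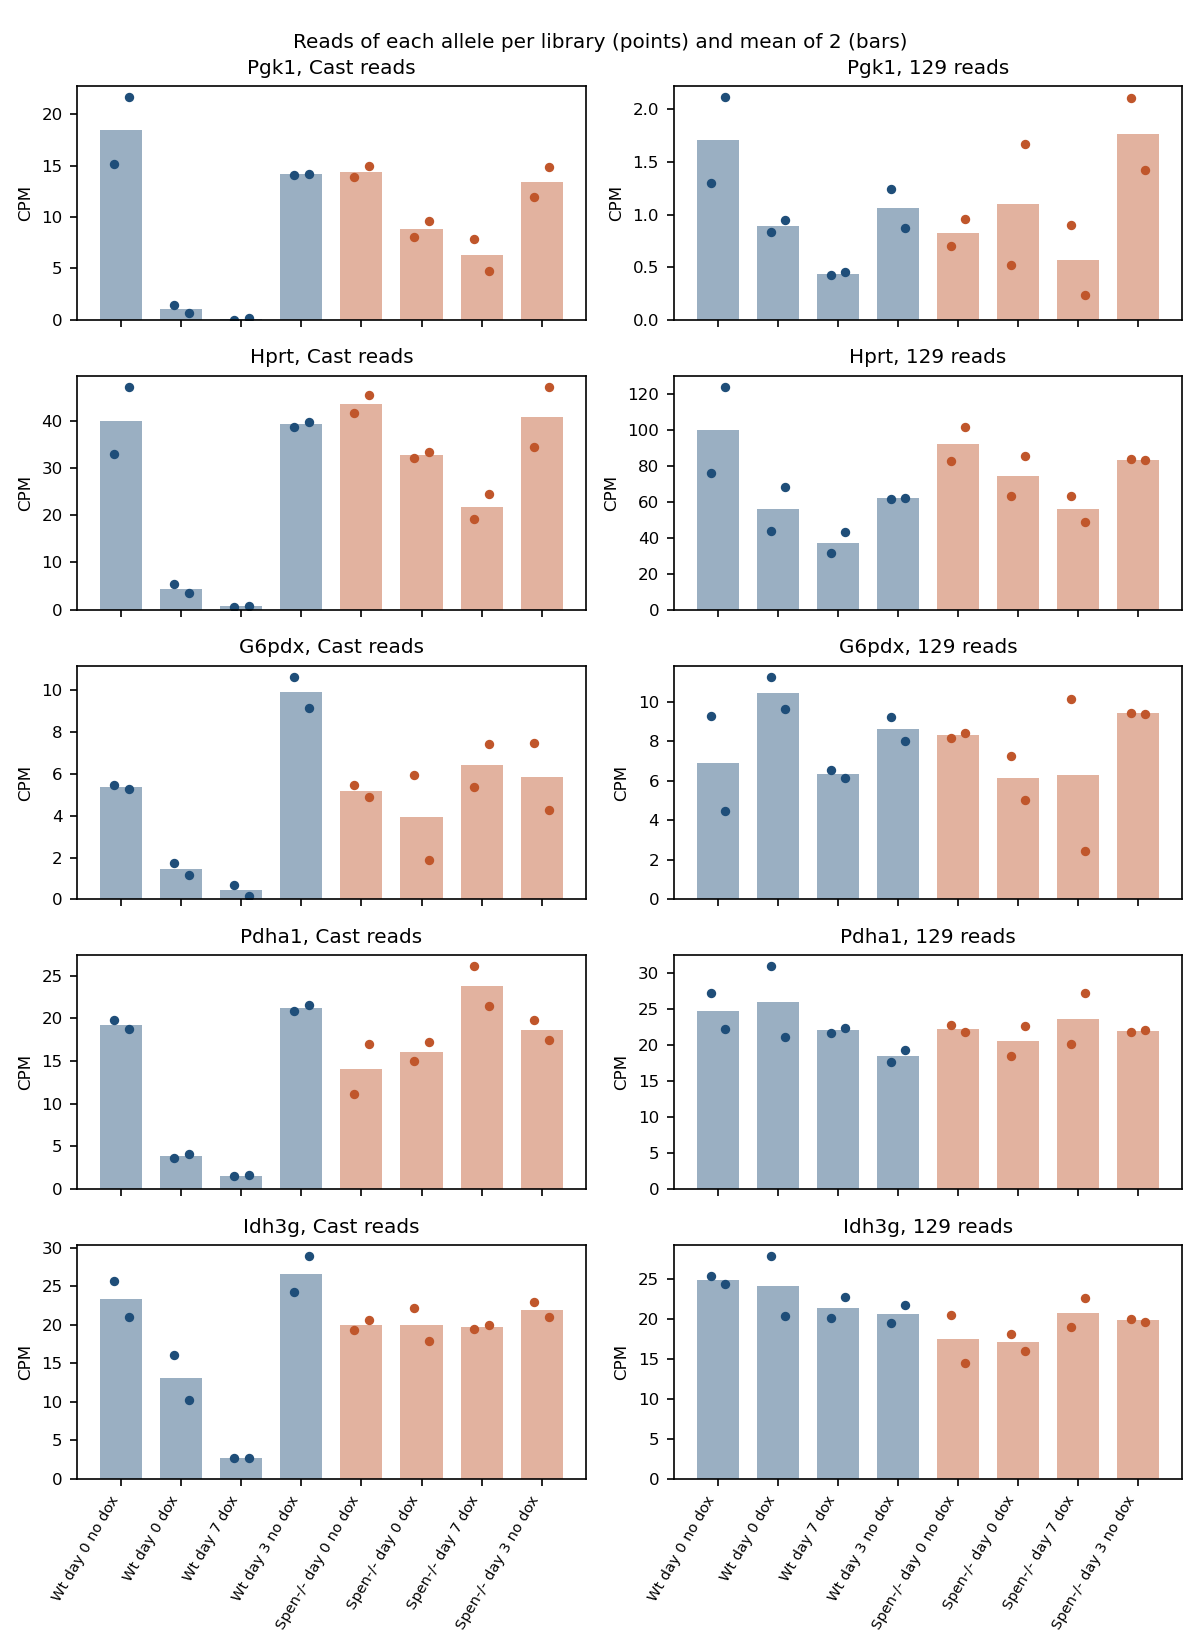
Cast reads (left) and 129 reads (right) of the 5 members in CPM on axes that start at 0, by condition, with points for libraries and bars for the mean of 2 (Wt blue, Spen-/- orange). In Wt cells with doxycycline the Cast bars shrink to between 1.7% (Hprt, day 7) and 56.2% (Idh3g, day 0) of their level without it at day 0, Pgk1 at day 7 aside, whereas the 129 bars of Pdha1 and Idh3g stay within 86.0% to 105%.

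Separating the 2 alleles showed where the reads were lost. In Wt cells with doxycycline at day 0 the Cast reads of Hprt fell from 32.9 and 47.1 CPM to 5.41 and 3.47 CPM, which left 11.1% of the mean. Those of Pdha1 went from 19.8 and 18.8 to 3.61 and 4.10 CPM (19.97%), those of G6pdx from 5.47 and 5.29 to 1.74 and 1.16 CPM (26.9%) and those of Idh3g from 25.6 and 21.02 to 16.1 and 10.2 CPM (56.2%). The Cast reads of Pgk1 had the largest relative fall of the 5, from 15.2 and 21.7 to 1.48 and 0.630 CPM (5.73%), the latter resting on 23 and 6 reads. At day 7 the Wt means were 1.7% of the untreated day 0 level for Hprt, 7.9% for G6pdx, 8.2% for Pdha1 and 11.6% for Idh3g. These percentages compare means of 2 libraries and were not tested apart from the ratio.

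The 129 allele behaved differently from gene to gene. For Pdha1 and Idh3g the 129 reads with doxycycline were 105% and 97.1% of the untreated level at day 0 and 89.3% and 86.0% at day 7 in Wt cells. For Hprt they were 56.0% and 37.2%. For G6pdx they were 152% and 92.3%, with 11.3 and 9.66 CPM at day 0 with doxycycline against 9.30 and 4.49 CPM without it. For Pgk1 they were 52.2% and 25.6%, from 5 to 16 reads per library. In Spen-/- cells at day 7 the 129 reads of Hprt were 60.8% and the Cast reads 50.1% of the untreated day 0 level, so both alleles were lower there. Cast reads of Idh3g in Spen-/- cells at day 7 were 98.6% and those of Pdha1 169% of that level.

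Pgk1 stood apart in how its reads were assigned. In Wt cells allele-specific reads made up 2.49% and 2.30% of its reads in the untreated libraries of day 0, 0.982% and 0.518% in the treated ones, and 0.268% and 0.362% at day 7. In Spen-/- cells they made up 1.68% to 4.08% in all 8 libraries. For Hprt this share was 12.1% to 14.8% in all 16. The share of Pgk1 reads that carried an allele was thus low in the 4 Wt libraries with doxycycline, and its 129 reads were few in every library, 2 to 20. In Wt cells with doxycycline at day 0 its total was 31.8% of the untreated mean, against 5.73% for its Cast reads and 52.2% for its 129 reads. A Cast share near 0.9 may therefore not describe all Pgk1 reads. The cause was not tested.

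**Figure D3:**
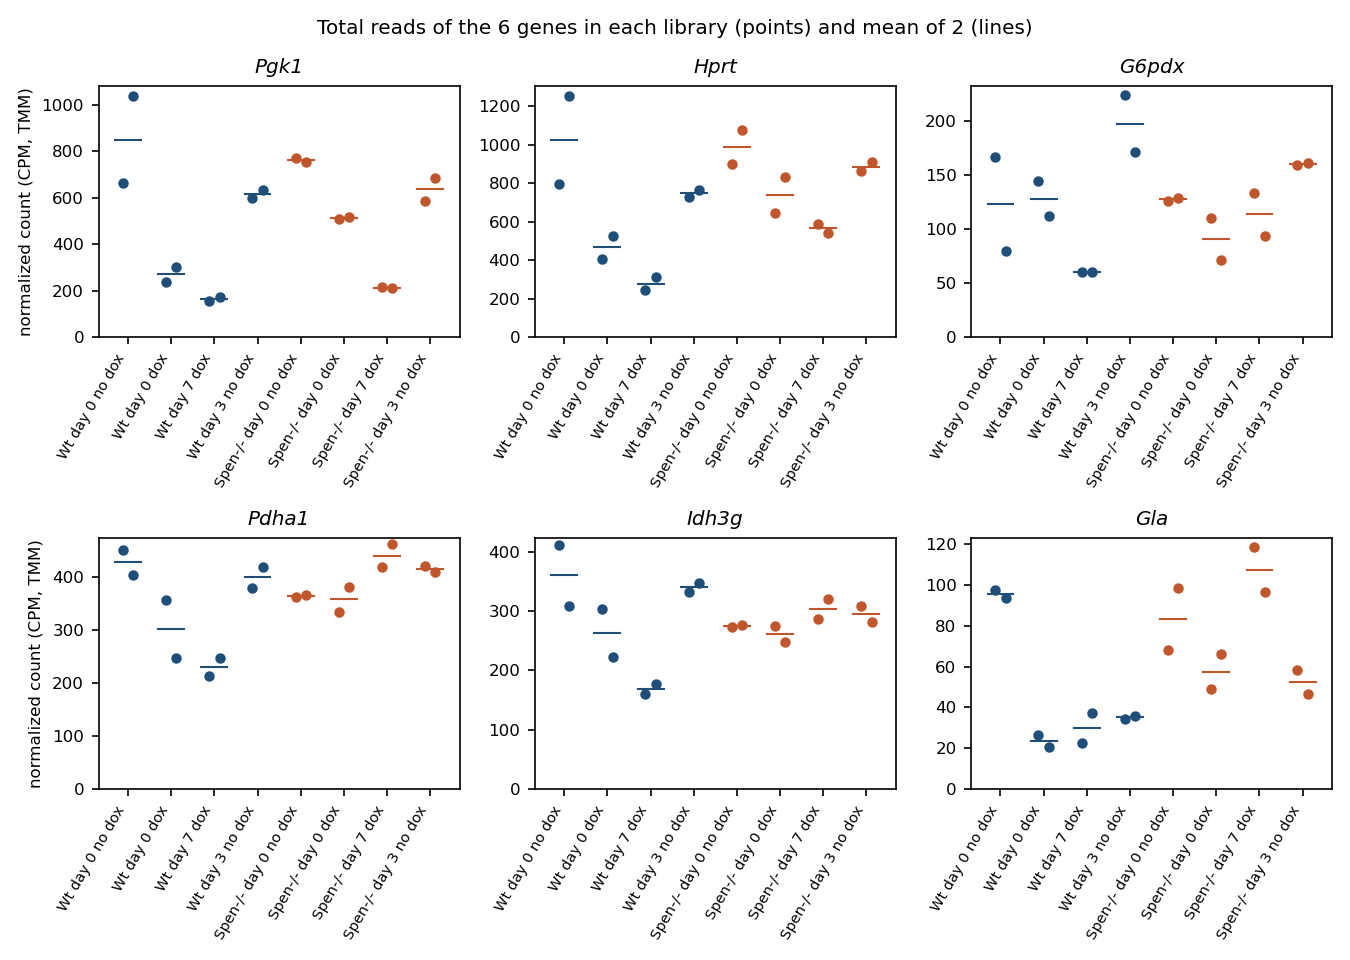
Total reads of the 6 members in TMM-normalized CPM (y axes from 0) by condition, with points for libraries and lines for the mean of 2 (Wt blue, Spen-/- orange). Hprt and Gla have their lowest means in Wt cells with doxycycline, with 1 Gla library at day 7 above both Wt libraries at day 3, and Pgk1 is lowest in Wt cells at day 7 (157 and 175 CPM), followed by Spen-/- cells at day 7 (214 and 212 CPM).

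Total reads from both alleles were compared next. In bulk RNA, fewer cells of a type and less RNA per cell cannot be told apart. In Wt cells at day 0 doxycycline lowered the total of 2 of the 6 members, Pgk1 and Gla. Pgk1 was at 662 and 1036 CPM without doxycycline and at 236 and 304 CPM with it, a log2 change of -1.65 ± 0.21 (3.14-fold, adjusted p = 0.0146). Gla was at 97.3 and 93.7 CPM without it and at 26.6 and 20.4 CPM with it (-2.02 ± 0.33, 4.06-fold, adjusted p = 0.0415). For both genes every treated library lay far below every untreated one.

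Hprt was at 797 and 1255 CPM without doxycycline and at 407 and 528 CPM with it (-1.13 ± 0.24, adjusted p = 0.123). Pdha1 went from 451 and 402 to 356 and 246 CPM (-0.50 ± 0.19, adjusted p = 0.578) and Idh3g from 412 and 309 to 304 and 223 CPM (-0.45 ± 0.20, adjusted p = 0.673). G6pdx was at 167 and 79.9 CPM against 144 and 112 CPM, so its ranges overlapped (0.06 ± 0.33, adjusted p = 1). Of the 18150 genes tested 0.149% were called, and 1.54% of the 715 X-linked ones. In 5 of the 6 members both treated libraries lay below both untreated ones, as in 42.8% of X-linked and 17.1% of all genes. The 10 pluripotency markers summed to 7842 to 10495 CPM without doxycycline and 4231 to 5707 CPM with it in the same Wt cells, and the part of this in the totals was not tested. Both calls were lost without replicate 2 of the untreated cells (adjusted p = 0.0588 for Pgk1 and 0.168 for Gla) and without replicate 1 of the treated cells (0.169 and 0.219), and that of Gla also without replicate 2 of the treated cells (0.233). Neither was called in a fit of the 4 libraries alone (both adjusted p = 0.733). Allele-specific reads alone gave a change of -3.31 for Pgk1, and with a replicate block, with DESeq2, with no filter on low counts and without replicate 1 of the untreated cells Hprt was called too (adjusted p = 0.0422, 0.000781, 0.00176 and 0.0246).

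In Spen-/- cells no total changed past the test with doxycycline. Pgk1 was at 769 and 753 CPM without it and 508 and 518 CPM with it, the largest change of the 6 in size (-0.57 ± 0.21, adjusted p = 0.506). Gla was at 68.2 and 98.7 against 48.8 and 66.1 CPM (-0.54 ± 0.32) and Hprt at 901 and 1075 against 647 and 835 CPM (-0.41 ± 0.23). The change of G6pdx was -0.48 ± 0.34. Pdha1 (-0.02 ± 0.19) and Idh3g (-0.07 ± 0.20) were nearly level. Of all genes 0.0716% were called, and 0% of the X-linked ones. The genotype difference of the effect was 1.48 ± 0.45 for Gla (adjusted p = 0.773), 1.08 ± 0.29 for Pgk1 (0.696), 0.72 ± 0.33 for Hprt (0.831), 0.48 ± 0.27 for Pdha1 (0.861) and 0.38 ± 0.28 for Idh3g (0.924). G6pdx alone had the opposite sign (-0.54 ± 0.47, adjusted p = 0.967). No gene was called for this difference (0% of 18150, with 1058 at an unadjusted p under 0.05, and 63 by DESeq2).

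At day 7 with doxycycline 4 of the 6 totals passed the test, each of them higher without Spen. Gla was at 22.6 and 37.2 CPM in Wt and at 118 and 96.5 CPM in Spen-/- cells (1.85 ± 0.32, 3.59-fold, adjusted p = 0.00497). Hprt was at 246 and 314 against 591 and 541 CPM (1.02 ± 0.23, adjusted p = 0.0219), Pdha1 at 212 and 247 against 418 and 461 CPM (0.94 ± 0.19, adjusted p = 0.0118), and Idh3g at 160 and 177 against 287 and 320 CPM (0.85 ± 0.20, adjusted p = 0.0231). Each of these 4 genes had both Spen-/- libraries above both Wt libraries.

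G6pdx was at 60.4 and 60.8 CPM in Wt and at 134 and 94.2 CPM in Spen-/- cells (0.91 ± 0.34, adjusted p = 0.131). Pgk1 differed least, at 157 and 175 against 214 and 212 CPM (0.36 ± 0.21, adjusted p = 0.318). Its Cast reads in the same libraries were 0 and 0.181 CPM in Wt and 7.84 and 4.77 CPM in Spen-/- cells, and a test of allele-specific reads alone gave a difference of 3.69 (adjusted p = 0.000173). That test rests on 5 and 7 Wt reads, too few for the ratio test. Of the Spen-/- reads 61 of 68 and 41 of 43 were Cast, so it follows mainly the Cast allele. The 2 readings of Pgk1 thus differ in size, and the cause was not tested. Of all genes 7.11% were called and of X-linked genes 17.3%, with medians of -0.14 and 0.53. Non-overlapping libraries with Spen-/- higher were seen in 6 of 6 members, in 40.8% of X-linked genes and in 19.6% of all genes. Without replicate 1 of the Wt cells none of the 4 calls held (adjusted p = 0.0754 to 0.201), and without replicate 2 Gla alone was called. Leaving out replicate 1 of Spen-/- day 7 ended the Hprt call (0.0594) and leaving out replicate 2 that of Idh3g (0.0732). The Idh3g call was lost with no filter on low counts (0.0509) and with allele-specific reads only (0.0604) too, and held in 4 of 10 alternatives in all. None was called in a fit of the 4 libraries alone (each adjusted p = 0.0677).

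Without doxycycline the totals of the genotypes did not differ past the test at either day. At day 3 the log2 differences ran from -0.30 ± 0.33 (G6pdx) to 0.57 ± 0.32 (Gla) and at day 0 from -0.39 ± 0.20 (Idh3g) to 0.05 ± 0.33 (G6pdx). Gla was at 34.4 and 35.9 CPM in Wt and at 58.3 and 46.3 CPM in Spen-/- cells at day 3, and at 97.3 and 93.7 against 68.2 and 98.7 CPM at day 0. No gene was called in either comparison (0% of 18150), with 585 and 828 at an unadjusted p under 0.05, and 6 and 35 by DESeq2.

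The order of the total levels was not shared by the members. Pgk1 and Hprt were highest at day 0 without doxycycline, with means of 849 ± 264 and 1026 ± 324 CPM (SD, n = 2) in Wt cells, and lowest in Wt cells at day 7, with 166 ± 12.7 and 280 ± 48.0 CPM. Pgk1 was second lowest in Spen-/- cells at day 7, at 213 ± 1.85 CPM. Gla was highest in Spen-/- cells at day 7 (107 ± 15.5 CPM) and lowest in Wt cells at day 0 with doxycycline (23.5 ± 4.42 CPM), which overlapped with Wt day 7 (29.9 ± 10.3 CPM). G6pdx was highest in Wt cells at day 3 (198 ± 37.6 CPM) and lowest in Wt cells at day 7 (60.6 ± 0.262 CPM). Pdha1 had its lowest mean in Wt cells at day 7 (230 ± 24.8 CPM), overlapping with Wt day 0 with doxycycline (301 ± 77.96 CPM), and Idh3g was lowest there with no overlap (169 ± 12 CPM).

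**Figure D4:**
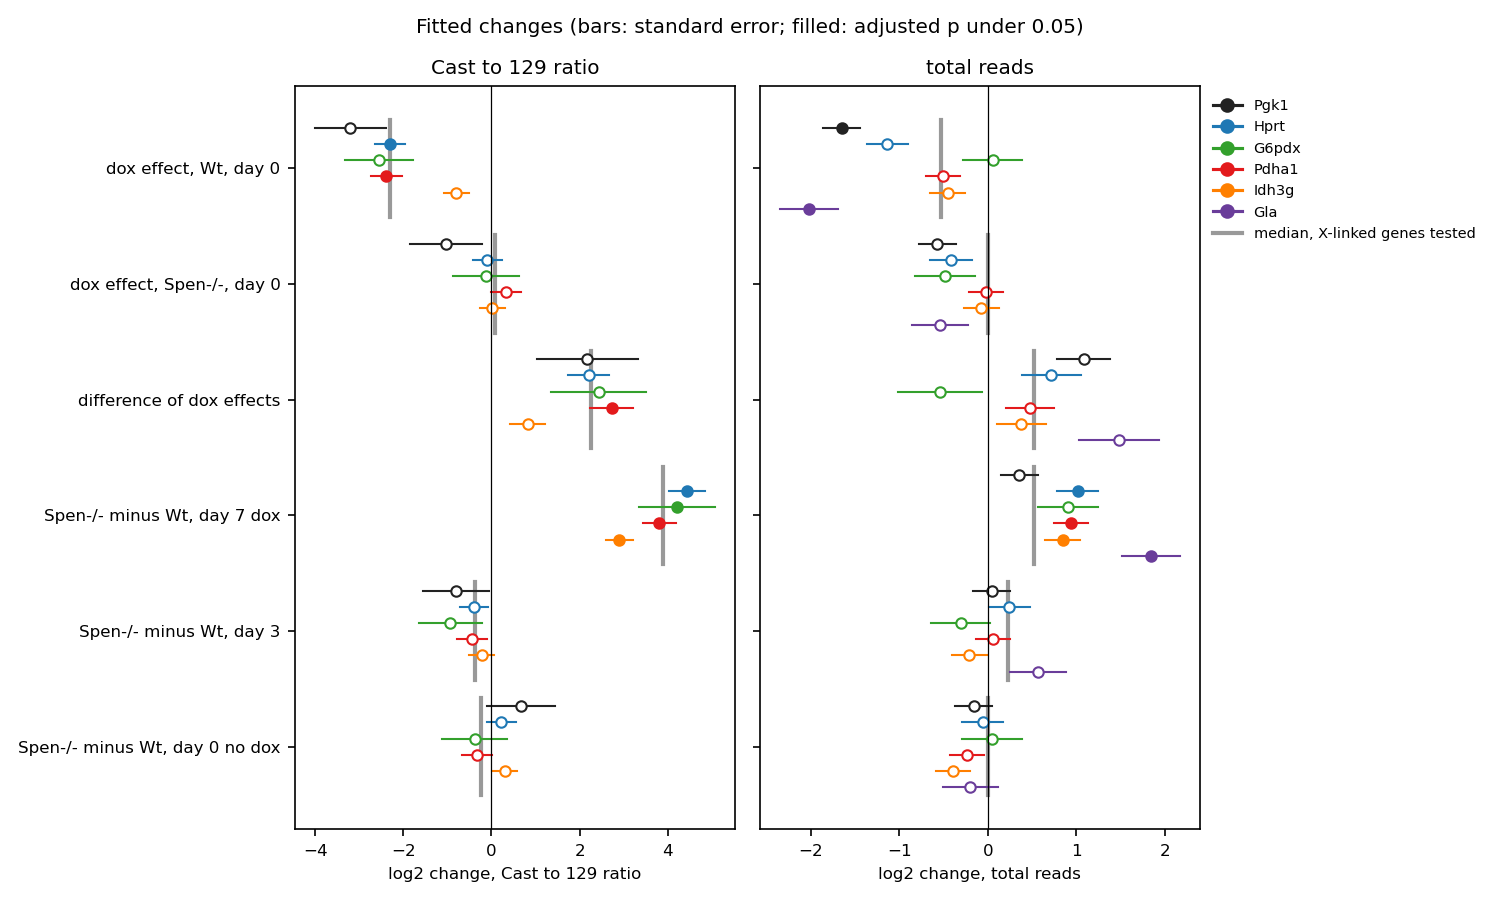
Fitted log2 changes of the Cast to 129 ratio (left) and of total reads (right) for each member in the 6 comparisons, with bars of 1 standard error, filled points for an adjusted p under 0.05 and a grey line for the median of the X-linked genes tested. Filled points stand in 3 comparisons on the left (2, 1 and 4 members) and in 2 on the right (2 and 4 members), and Idh3g is the member closest to 0 on the left in Wt cells with doxycycline.

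The partner genes of each pathway were read in the same fits of total counts, each list beside the median of all genes. With doxycycline at day 0, and in the comparisons without it, none of the listed glycolytic, pentose phosphate, pyruvate dehydrogenase, citrate cycle, purine or lysosomal genes was called. The counts at day 7 stand beside the 7.11% of all 18150 genes that were called there. Of 15 other glycolytic genes 1 was higher and 4 were lower in Spen-/- cells (median -0.55, all genes -0.14). Pfkp, a phosphofructokinase, was higher by 1.75 ± 0.27 (adjusted p = 0.00237), Pfkl, the liver form of the same enzyme, was lower (-1.66 ± 0.28, 0.00423), and so was the lactate dehydrogenase subunit Ldhb (-1.05 ± 0.28, 0.0450).

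In the pentose phosphate list 1 of 7 genes was higher, Taldo1 (transaldolase, 0.95 ± 0.22, adjusted p = 0.0246), with a list median of -0.89. None of 11 genes of the pyruvate dehydrogenase complex and its regulators was called (median -0.40). In the citrate cycle 1 of 16 was higher, Idh3a, the catalytic partner of Idh3g (1.12 ± 0.21, adjusted p = 0.00748), with a median of 0.14. Idh3a and Idh3g were both called higher in Spen-/- cells at day 7. However, 1 call in a list of 16 is near the 7.11% of all genes, and the Idh3g call held in 4 of 10 alternatives. Of 12 purine genes 1 was lower, the AMP deaminase Ampd2 (-1.82 ± 0.45, adjusted p = 0.0326), with a median of 0.0029. Among 16 lysosomal hydrolases and their activators 1 was higher and 2 were lower (median -0.69), namely Gm2a (2.43 ± 0.56, adjusted p = 0.0216), Psap (-2.72 ± 0.41, 0.00216) and Hexa (-1.38 ± 0.30, 0.0171), of which Gm2a and Psap encode activator proteins.

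A list of 30 other X-linked genes, mostly metabolic but with others such as Pola1 among them, was read for both alleles and totals. In Wt cells doxycycline at day 0 lowered the Cast to 129 ratio of 4 of the 20 that could be tested (median -1.83), where 14.9% of X-linked genes were called. Hsd17b10, a mitochondrial dehydrogenase, had 133 and 158 Cast reads without and 8 and 15 with doxycycline (-3.94 ± 0.38, adjusted p = 3.60e-05). Pdk3, a kinase that switches off pyruvate dehydrogenase, changed by -2.76 ± 0.56 (adjusted p = 0.0347) and Prps1, which makes the ribose phosphate used by Hprt, by -1.81 ± 0.20 (0.000116). The genotype difference of this effect, called for 5.14% of X-linked genes, was called for 2 of 19, Hsd17b10 (4.06 ± 0.51, adjusted p = 0.00106) and Prps1 (1.505 ± 0.28, 0.0396).

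At day 7 the ratio was higher in Spen-/- cells for 14 of 20 of these genes (median 3.71), where 45.2% of X-linked genes were called. Pola1 and Prps2 had 0 Cast reads in both Wt libraries, with 56 and 48 and with 44 and 46 reads from 129, and had 53 and 21 and 33 and 33 Cast reads in Spen-/- cells. Pdk3 had 0 and 6 Cast reads in Wt and 79 and 91 in Spen-/- cells. In total counts 1 of the 30 was lower in Wt cells with doxycycline, the cytochrome oxidase gene Cox7b (-1.52 ± 0.26, adjusted p = 0.0479, list median -0.75), where 1.54% of X-linked genes were called. At day 7 12 were higher and 1 lower in Spen-/- cells (median 0.74), beside the 17.3% of X-linked genes called, with Prps1 at 1.93 ± 0.33 (adjusted p = 0.00453) and Apoo at 1.86 ± 0.30 (0.00293). Ids, the lower one, had 25 and 72 reads in Wt and 0 in both Spen-/- libraries, which had the fewest genes with reads. It also had only 2 reads in replicate 2 of untreated Wt day 0 and 4 in replicate 1 of Spen-/- day 3. Whether its counts of 0 reflect absent RNA or missed reads was not tested.

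Paralogues of the members were low. Pgk2 had 0 reads in all libraries, G6pd2 was at 0.387 to 2.78 CPM and Pdha2 at 0 to 4.63 CPM. Among the markers, 7 of 10 pluripotency genes were higher and 1 lower in Spen-/- cells at day 7, with Dppa5a at 5.68 ± 0.37 (adjusted p = 1.40e-05), Zfp42 at 4.02 ± 0.23 (5.90e-06) and Tfcp2l1 at 2.88 ± 0.46 (0.00290). Of 9 tested markers of differentiated cells 1 was called, the mesoderm gene T. It was lower in Spen-/- cells, with 2283 and 2328 reads in Wt and 0 in both Spen-/- libraries, which had the fewest genes with reads. None of 11 fibroblast markers and none of the 2 Y-linked genes that could be tested was called in the 6 comparisons.

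The Cast shares of the members ran in parallel over the 16 libraries, with Pearson r from 0.714 (G6pdx and Idh3g) to 0.941 (Pgk1 and Idh3g). Among 124 X-linked genes that exceeded 20 allele-specific reads in every library, Atrx had the pattern most like the mean of the 5 members (r = 0.979), followed by Dkc1 (0.970), Pdk3 (0.965), Hsd17b10 (0.963) and Bcap31 (0.962). The median r of the 124 genes was 0.875, so a like pattern was common on the X chromosome. Taken singly, Hprt was most like Atrx (0.971), Pgk1 most like Dkc1 (0.958), Pdha1 most like Hsd17b10 (0.964), Idh3g most like Alg13 (0.961) and G6pdx most like Vbp1 (0.912). These correlations describe 16 libraries that are shared by all genes, and each rests on the same low Wt values with doxycycline.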

How the data were processed

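RNA was sequenced from 16 libraries prepared with Smart-seq2 from at most 1 ng of RNA, as 50 bp single-end reads. The authors aligned reads to an mm10 genome masked at 129/Sv and Cast/Ei SNPs, assigned them to an allele with SNPsplit and deposited raw counts per gene for 129, Cast and unassigned reads. The submitters' processing notes name HISAT2 2.2.1, SAMtools 1.10 and HTSeq 0.12.4. Strand setting and duplicate removal are not given in the sources used here.

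Rows that name no gene held 31.6% to 45.4% of the deposited counts and were left out. Replicates differed by more than sampling noise and none were identical. The Cast share is Cast reads over allele-specific reads. Allelic balance was tested with edgeR 4.0.16 (R 4.3.3) by the quasi-likelihood F-test on the 129 and Cast counts of each library, with terms for library and for allele within condition, over genes whose reads with an allele exceeded 20 when the 2 replicates were summed, in every condition compared. Totals (129, Cast and unassigned) of 18150 genes kept by filterByExpr were TMM-normalized and tested in 1 fit of all libraries. Benjamini-Hochberg adjustment ran over all genes tested, with a threshold of 0.05. An exact permutation test of 2 libraries against 2 cannot go below p = 0.333 and was not used. Standard errors are the log2 change over the square root of F. Wilson intervals (95%) and the limit of 3 counts for a count of 0 cover counting error only. Simulated data were fitted only for doxycycline in Wt cells at day 0, with noise drawn from the fitted spread. They cannot check the other comparisons or the real spread between replicates. Alternatives were DESeq2 1.42.0, other scalings and minima, a replicate block, the compared libraries alone and each library left out. Added after the data were seen was a fit without the 2 Spen-/- day 7 libraries.

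The members and gene lists were chosen with earlier results of these data known. Named list genes are the called ones with the largest changes, up to 3 per list and comparison. The paper describes the 2 libraries of each condition as biological replicates. The p-values rest on a spread between replicates that is pooled over all 16 libraries, not on that of the compared conditions alone.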

Additional observations from a re-analysis of the deposited data

Results flagged for a closer look

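The Cast to 129 ratio of Pdha1 responded differently to doxycycline at day 0 in the 2 genotypes. The difference of the log2 changes (Spen-/- minus Wt) was tested directly and was 2.73 ± 0.49 SE (edgeR quasi-likelihood adjusted p = 0.0347). The Cast share went from 0.421 and 0.458 to 0.104 and 0.162 in Wt cells and from 0.330 and 0.439 to 0.448 and 0.431 in Spen-/- cells. Among the 253 X-linked genes tested this difference was the 97th from the highest, beside a median of 2.25, so it was not particular to Pdha1. The call held in 8 of 15 alternatives and was lost in 7, 6 of them with 1 library left out. The other was a fit of the compared libraries alone (edgeR quasi-likelihood adjusted p = 0.0598).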

How the results depend on the processing

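With 2 libraries per condition, the calls rest on the spread pooled over all 16. Of 82 counts of called enzymes under alternatives that kept every library or dropped both Spen-/- day 7 libraries, 74 stayed within 1.5 times the reported one. This tally includes the comparisons in which no enzyme was called, where the count stayed at 0 and could hardly move. The counts that moved all belong to comparisons with called enzymes and are given next. For the ratio, the genotype difference of the doxycycline effect gave 2 called enzymes with DESeq2, 2 at a minimum of more than 10 reads, 2 without the Spen-/- day 7 libraries and 0 in the compared libraries alone, against 1. Day 7 gave 0 in the compared libraries alone, against 4. For totals, Wt cells with doxycycline gave 1 with allele-specific reads only and 0 in the compared libraries alone, against 2, and day 7 gave 0 in the compared libraries alone, against 4. Those fits have fewer samples to estimate the spread. Other causes were not tested.

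Leaving out each library gave 1 to 2 called enzymes for the ratio in Wt cells with doxycycline, 0 to 1 for its genotype difference, 0 to 3 for totals in Wt cells with doxycycline and 0 to 3 for totals at day 7. Where 1 sample remained in a condition, it was assumed to vary like the others. None of the following results was called, and each changed sign when a library was left out. The ratio in Spen-/- cells with doxycycline ranged from -0.28 to 0.094 (Hprt), -0.72 to 0.39 (G6pdx) and -0.28 to 0.30 (Idh3g), and that of G6pdx between genotypes at day 0 from -0.91 to 0.086. Totals with doxycycline ranged from -0.37 to 0.69 (G6pdx, Wt), -0.12 to 0.063 (Pdha1, Spen-/-) and -0.16 to 0.0060 (Idh3g, Spen-/-). Totals between genotypes ranged from -0.073 to 0.16 (Pgk1) and -0.012 to 0.13 (Pdha1) at day 3, and from -0.44 to 0.19 (Pgk1), -0.35 to 0.29 (Hprt), -0.40 to 0.68 (G6pdx) and -0.50 to 0.046 (Gla) at day 0. Scaling each allele apart turned Idh3g in Spen-/- cells with doxycycline to -0.077. Allele-specific reads only turned totals of G6pdx in Wt cells with doxycycline to -0.018, of Pdha1 and Idh3g in Spen-/- cells with it to 0.038 and 0.0067, and of Pgk1 at day 3 to -0.0022.

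No source used here ties same-numbered libraries to a shared culture or day, and 7 of 28 correlations of same-numbered deviations exceeded 0.1 (range -0.15 to 0.291), so the numbers were not taken as pairs. The 7 were not scattered, since they include all 6 pairs among Wt day 0 without and with doxycycline (the highest, 0.291), Spen-/- day 0 without it and Wt day 7. With the same conditions, in this order, Spen-/- day 3 had negative correlations (-0.145, -0.15, -0.11 and -0.107). Whether libraries of these conditions were handled together was not tested. With a replicate block the called enzymes numbered 2, 0, 1, 4, 0 and 0 for the ratio and 3, 0, 0, 4, 0 and 0 for totals, in the order of the comparisons above, and over all genes totals gave 47 calls in Wt and 8 in Spen-/- cells with doxycycline, against 27 and 13.

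Over all genes DESeq2 called more, 85 against 42, 56 against 13 and 580 against 251 for the ratio (Wt with doxycycline, genotype difference, day 7) and 251 against 27, 309 against 13 and 2710 against 1291 for totals (Wt and Spen-/- with doxycycline, day 7). With no filter on low counts these totals gave 290, 252 and 2521, and 83, 23 and 17 where 0 had been called. Allele-specific reads only gave 22 against 13 in Spen-/- cells. The compared libraries alone gave 27 and 2 for the ratio (Wt with doxycycline, day 7) and 0 for totals. Without the Spen-/- day 7 libraries the genotype difference gave 27, and totals 44 in Wt and 42 in Spen-/- cells. Leaving out single libraries gave 13 to 28, 5 to 14 and 110 to 662 for the ratio and 2 to 204, 0 to 35 and 545 to 1751 for totals. For Pgk1 depth is the limit, with 12 allele-specific reads in Wt cells at day 7.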
